A study of Arabidopsis thaliana with 24 samples.

Results

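A set of 76 Arabidopsis genes answered a long chill that began in the subjective morning and stayed near their unchilled level in a shorter chill that ended at subjective dawn. They were chosen from 17952 genes with values, of 37336 listed, by size of response alone. A gene had to average at least 5 over all 24 libraries, to be at least 1.5 higher at 4 °C than at 19 °C on the log2(value + 0.5) scale in sig5-3 and in wild type in the set chilled from ZT27, and to lie within 0.5 of no difference in both genotypes in the set chilled from ZT45. Of 13859 genes with a mean of at least 5, 446 met the first limit, and 321 of these were also more than 0.5 higher at ZT45 in both genotypes. Another 46 fell on different sides of a ZT45 limit in the 2 genotypes, and 3 were more than 0.5 lower in both. The chilling differences chose the genes, so they are given here as a description and carry no test.

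The mutant was sig5-3, a T-DNA insertion line (SALK_141383C) of SIG5, and the wild type was its background accession Col-0 (WT). SIG5 is a nuclear gene, and its product is a sigma factor, which lets the chloroplast's own RNA polymerase recognise promoters of plastid genes. Whole seedlings of both genotypes were grown for 11 days at 19 °C under 12 h photoperiods and then held in continuous light for 24 h, which all groups share. One set was chilled at 4 °C from zeitgeber time 45 (ZT45, hours after dawn) for 3 h, another from ZT27 for 5 h, and each had a parallel set kept at 19 °C. Each of the 8 groups had 3 independent samples of 10 pooled seedlings, and a single mutant line was used. The treatments thus ended, and samples were taken, at ZT48 and ZT32. Start and length of chilling and the hour of sampling differ together between the sets and cannot be told apart. Comparisons of the sets at 19 °C are likewise between those 2 sampling hours, and between different times since continuous light began. The column names of the 2 sets also carry different prefixes, and whether the sets were grown, prepared or sequenced apart is not stated. Any such difference cannot be told apart from the sampling hour. ZT45 and ZT27 below name the sets by the start of treatment.

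The deposited values are a normalized read abundance per gene that is not divided by gene length, so levels are compared within a gene and never between genes. An estimated 21275984 to 36441530 reads per library lay on genes with values, and 3 reads, taken as the detection limit for counting error only, were worth 0.0688 to 0.1115. The lowest value of any of the 76 genes in any library was 0.630, above that limit. SIG5 itself ran from 0.762 to 37.2 over the 12 sig5-3 libraries and from 7.32 to 149.8 over the 12 WT libraries, and in each condition every sig5-3 library lay below every WT library. Replicate 1 of chilled sig5-3 at ZT27 stood apart, with a root mean square deviation from its group of 0.263 on the log2 scale, against at most 0.17 in the other libraries. Without it, 2 of the 76 genes fell short of the ZT27 limit of 1.5 in sig5-3, AT5G18550 (1.38) and LSU2 (1.34). Its value was the lowest of its group for 35 of the 76 genes and the highest for 27.

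The tissue check used leaf and root genes. All 5 leaf markers, the Rubisco genes RBCS1A, RBCS2B and RBCS3B, RCA and LHCB3, had values, and their summed level at ZT45 was 43930 to 48900 in chilled and 51360 to 59080 in unchilled sig5-3, and 43940 to 44150 in chilled and 45350 to 48960 in unchilled WT. At ZT27 the leaf sums were 46810 to 56520 in chilled and 33050 to 37160 in unchilled sig5-3, and 37730 to 41090 in chilled and 29660 to 36740 in unchilled WT. Of 7 root markers 4 (SCR, SHR, IRT1 and CASP1) had values, and COBL9, EXPA7 and TIP2-3 had none. The root sums at ZT45 were 67.7 to 71.0 in chilled and 52.7 to 57.3 in unchilled sig5-3, and 64.7 to 71.1 in chilled and 48.7 to 54.0 in unchilled WT. At ZT27 they were 33.4 to 39.0 in chilled and 36.1 to 36.8 in unchilled sig5-3, and 33.6 to 34.1 in chilled and 37.7 to 39.8 in unchilled WT. The root sums were thus higher in every ZT45 library than in any ZT27 library, and the part of tissue makeup in the results below was not tested. Within a genotype, every chilled library had higher root sums at ZT45, and higher leaf sums at ZT27, than every unchilled one. The sums can therefore also reflect the level of the marker transcripts, and do not measure tissue makeup alone. In whole seedlings, fewer cells of a type and less RNA per cell cannot be told apart.

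Plants sense cold within minutes and induce waves of transcription through CBF and other factors, and the circadian clock gates how strongly many genes answer at a given hour. The clock's morning loop rests on the MYB factors CCA1 and LHY, which peak near dawn and repress evening genes. REVEILLE proteins such as RVE8 and their LNK partners activate genes later in the day. In continuous light the clock keeps running, so unchilled plants sampled at different hours also differ in their transcripts.

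At ZT45 the median difference of the 76 genes, 4 °C minus 19 °C, was 0.24 in sig5-3 (range −0.49 to 0.49) and 0.25 in WT (−0.44 to 0.50), where the medians over all 17952 genes were −0.01 in sig5-3 and 0.03 in WT. At ZT27 the medians were 1.98 in sig5-3 (1.50 to 6.14) and 1.89 in WT (1.50 to 5.72), against −0.01 over all genes in both genotypes. Averaged over genotypes, 5 genes were at least 3 higher at ZT27, 26 between 2 and 3, and 45 under 2. At ZT45 53 of the 76 were above 0 in both genotypes, 13 below 0 in both and 10 of mixed sign. In 34 of them (44.7%) every chilled ZT45 library lay above every unchilled one in both genotypes, where 19.4% of all genes did so. The wording that chilling raised these genes at ZT27 only is therefore stricter than the data. In 5 (6.58%) every chilled ZT45 library lay below, against 17.3% of all genes. At ZT27 the chilled and unchilled libraries did not overlap for any of the 76 in either genotype, against 28.7% of all genes higher without overlap in sig5-3 and 32.8% in WT. A difference of at least 1.5 in both genotypes was reached by 0.713% of all genes at ZT45 and by 2.87% at ZT27. All of these counts concern the differences that chose the genes, and no test is drawn from them.

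The limits cut through a continuum. Just inside the ZT27 limit lay the zinc finger gene AT5G18550 (1.50), the transporter gene AT1G19450 (1.50) and MUR4, an epimerase of nucleotide sugars (1.52), and just outside lay AT1G67310 (1.49), AT5G55570 (1.47) and SUE4 (1.46), each by its smaller difference. At the ZT45 limit the cytochrome P450 gene CYP81D5 (0.498), LSU3 (0.494) and AT5G26220 (0.487) were inside, and AT2G43620 (0.501), AT1G70900 (0.511) and AT1G21790 (0.518) outside, by the larger size of their differences. By mean level the UPBEAT-like factor gene AT5G39240 (5.05), the exchanger gene AT5G17850 (5.55) and the methyl esterase gene MES9 (5.56) were inside, and SAG29 (4.81), RAP2.10 (4.74) and AT2G29370 (4.64) outside.

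**Figure D1:**
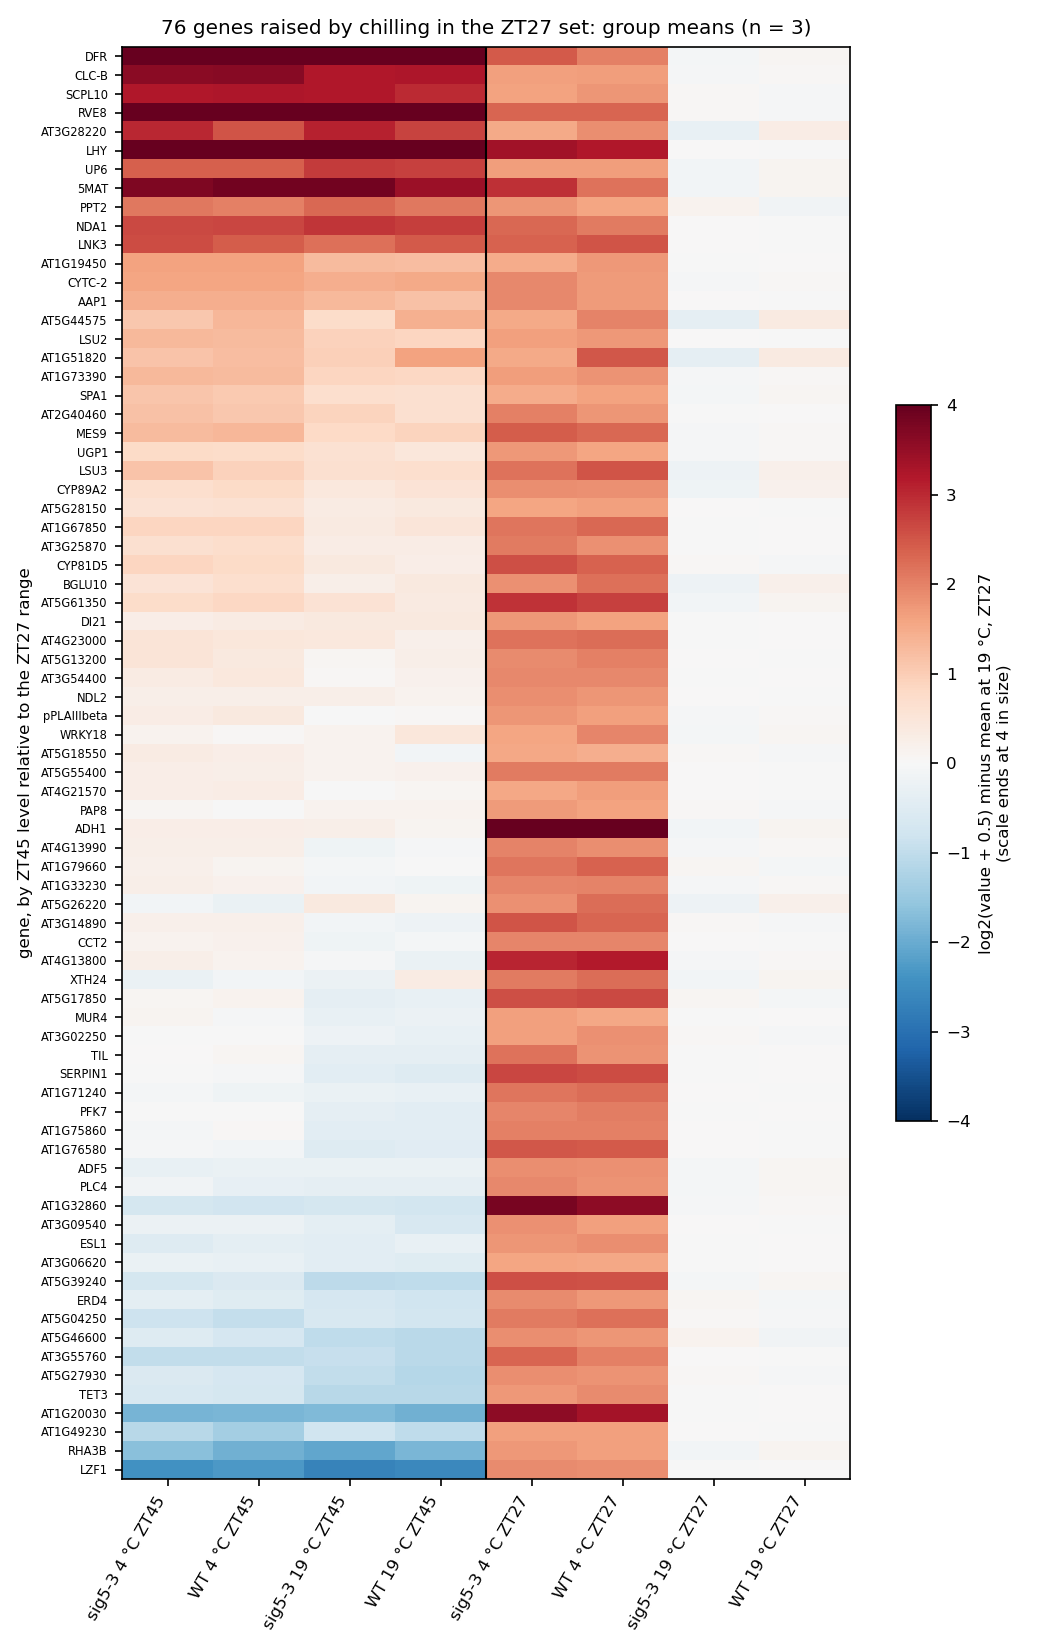
Mean log2(value + 0.5) of each of the 76 genes in the 8 groups (n = 3 libraries each), shown as the difference from that gene's mean at 19 °C in the ZT27 set, with genes ordered by their level at ZT45. The chilled ZT27 columns are red throughout, while the ZT45 columns run from red at the top through paler shades to blue at the bottom. Chilled and unchilled ZT45 columns of a gene look alike.

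The small chilling difference at ZT45 was common to the genes by the rule, but their ZT45 levels stood at different heights against the ZT27 levels. Most were near or below the unchilled ZT27 level. To place them, the mean of the 4 ZT45 groups was set on a scale per gene on which the unchilled ZT27 level is 0 and the chilled ZT27 level is 1. The median of the 76 was 0.10, with a range from −1.32 to 2.24. The ZT45 level of 50 genes lay under 0.25, that is near or below the unchilled ZT27 level, and 27 of these were under 0. Near is meant relative to each gene's rise: in 5 of the 50 all 6 unchilled ZT45 libraries lay above all 6 unchilled ZT27 libraries. Another 13 genes lay between 0.25 and 0.75, and 13 lay over 0.75, of which 11 were over 1 and so above the chilled ZT27 level. Among the other 370 genes raised at ZT27, many of which were also raised by chilling at ZT45, the median was 0.43, with 139, 126 and 105 genes in the same order of classes. Since the ZT45 difference of the 76 was kept small by the rule, the 2 medians are set side by side as a description.

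**Figure D2:**
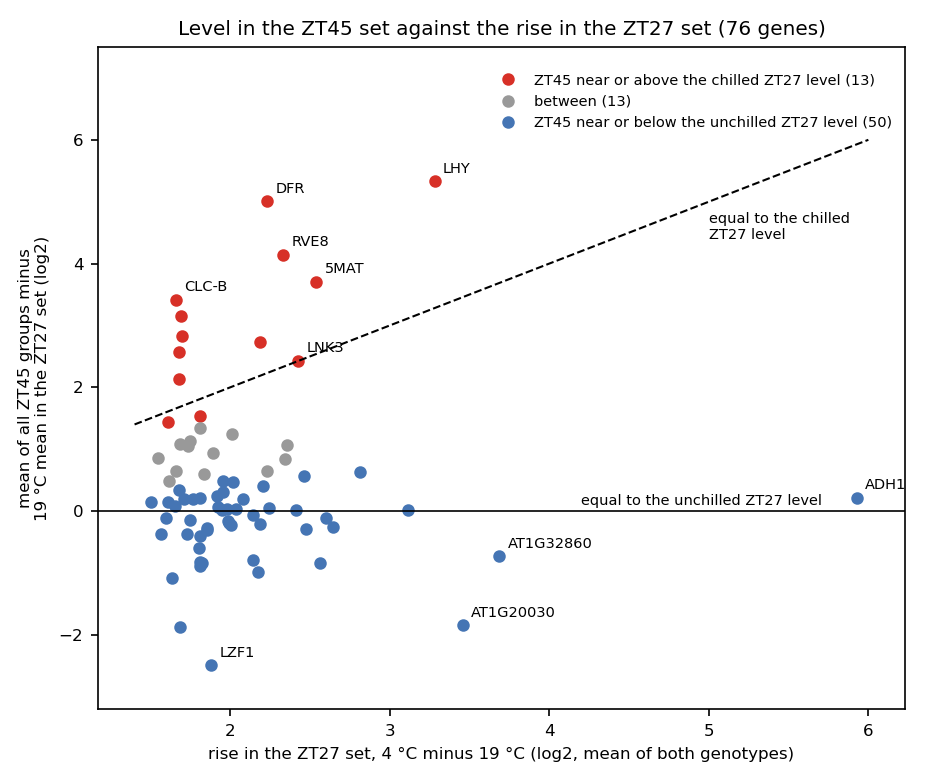
Each point is 1 of the 76 genes. The horizontal axis is its chilling difference at ZT27 and the vertical axis the mean of its 4 ZT45 groups minus its unchilled ZT27 level, both on the log2 scale. Points on the solid line had the same level as unchilled ZT27 seedlings and points on the dashed line the same level as chilled ones: 50 genes lie near or below the solid line, 13 near or above the dashed line, and ADH1 lies far right, near the solid line.

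The time sets were also compared at each temperature. At 4 °C the ZT45 libraries lay above the ZT27 libraries for 9 of the 76 genes (11.8%, against 19.1% of all genes) and below for 58 (76.3%, against 17.6%), a share that the rule makes large. At 19 °C all 6 ZT45 libraries lay above all 6 ZT27 libraries for 28 (36.8%, against 18.9%), and below them for 24 (31.6%, against 18.8%). The split was thus seen in unchilled seedlings alone. Their ZT45 minus ZT27 difference ran from −2.62 to 5.25 with a median of 0.14, against −0.02 over all genes and 0.37 over the other 370 genes raised at ZT27. It was over 0.5 for 23 genes (30.3%), against 44.6% of the other 370 and 10.0% of all genes, and under −0.5 for 13 (17.1%), against 21.9% of the 370 and 8.25% of all genes. The remaining 40 were within 0.5, so such time differences were not particular to the 76. These overlaps of time sets were examined after the values had been seen and have no p.

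Averaged over temperatures and genotypes, limma found 73 of the 76 genes different between ZT45 and ZT27 at an adjusted p under 0.05, with 67.9% of all genes passing. Of these 18 were higher and 55 lower at ZT45, against 34.6% and 33.3% of all genes. A gene that is flat at ZT45 near its unchilled ZT27 level must fall below its ZT27 average, so the count of lower genes follows in part from the rule. In the other direction, 9 of the 76 passed and were more than 1.5 higher (11.8%), against 13.2% of the other 370 genes raised at ZT27 and 1.30% of all genes, so the share was close to that of the other raised genes. They were LHY, RVE8, DFR, 5MAT, SCPL10, CLC-B, NDA1, AT3G28220 and UP6, most of which are described below. By limma the largest differences were those of DFR (3.90 ± 0.11, SE, adjusted p = 3.82e-16) and LHY (3.69 ± 0.06, adjusted p = 2.88e-23), and the lowest AT1G20030 (−3.57 ± 0.06, adjusted p = 5.97e-25) and LZF1 (−3.43 ± 0.03, adjusted p = 6.19e-29).

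Genes that were already high in unchilled seedlings at ZT45 included 3 parts of the clock's morning arm. LHY (AT1G01060; chromosome 1, 33365 to 37871, minus strand, TAIR10.1) had 322, 352 and 352 in sig5-3 and 346, 335 and 346 in WT at 4 °C, against 309.6, 312 and 295 in sig5-3 and 304, 285 and 320.3 in WT at 19 °C in the ZT45 set. In the ZT27 set LHY had 63.2, 99.8 and 85.6 in sig5-3 and 77.3, 73.1 and 71.1 in WT at 4 °C, against 8.27, 7.28 and 7.22 in sig5-3 and 6.53, 6.88 and 9.25 in WT at 19 °C. Every ZT45 library, chilled or not, lay above every chilled ZT27 library, and the unchilled ZT27 libraries were lowest of all. LHY was 37.98 times as high at ZT45 as at ZT27 at 19 °C, and its chilling difference at ZT45 was 0.16 in sig5-3 and 0.18 in WT, against 3.34 in sig5-3 and 3.22 in WT at ZT27.

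RVE8 (AT3G09600; chromosome 3, 2946239 to 2949017, plus strand), which encodes a MYB activator of evening genes, had 50.2 to 57.8 (median 54.6) in the 6 chilled and 64.7 to 67.7 (median 65.5) in the 6 unchilled ZT45 libraries, and 14.1 to 21.7 (median 15.9) in the 6 chilled and 2.42 to 4.19 (median 2.75) in the 6 unchilled ZT27 libraries. Its 4 conditions did not overlap, and at ZT45 all chilled libraries lay below all unchilled ones (−0.27 in sig5-3 and −0.27 in WT), the opposite direction to ZT27 (2.29 in sig5-3 and 2.37 in WT). LNK3 (AT3G12320; chromosome 3, 3923515 to 3925502, plus strand), a small member of the LNK coactivator family that binds REVEILLE proteins, had 23.3, 21.97 and 23.6 in sig5-3 and 19.3, 20.3 and 20.8 in WT at 4 °C, against 18.9, 16.6 and 16.1 and 19.6, 18.7 and 23.04 at 19 °C in sig5-3 and WT, in the ZT45 set. At ZT27 it had 10.9, 28.7 and 21.4 in sig5-3 and 20.8, 21.5 and 21.2 in WT at 4 °C, against 4.76, 2.69 and 2.92 in sig5-3 and 2.502, 3.35 and 4.16 in WT at 19 °C. The chilled sig5-3 libraries of LNK3 were far apart because replicate 1, the library that stood apart, was lowest by 1.15 on the log2 scale against the mean of the others of its group.

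The other morning clock genes show how narrow the set is. Of 14 such genes with values none was at least 1.5 higher at 4 °C in both genotypes at ZT45 and 10 were so at ZT27, and only LHY, RVE8 and LNK3 met every limit. CCA1, the partner of LHY, was 0.93 higher in sig5-3 and 0.85 in WT at ZT45, beside 3.73 and 3.58 in the same genotypes at ZT27. RVE4, a close relative of RVE8, was 0.28 in sig5-3 and 0.21 in WT at ZT45, and missed the ZT27 limit with 1.29 and 1.24. The pseudo-response regulator PRR9 was at 1.15 in sig5-3 and 0.29 in WT at ZT45, beside 3.51 and 3.47 at ZT27. LNK1, LNK2 and LNK4 were the 3 genes of the 446 that were more than 0.5 lower at 4 °C at ZT45 in both genotypes. At ZT45 LNK1 was at −1.40 in sig5-3 and −1.62 in WT, LNK2 at −1.04 and −1.14, and LNK4 at −1.03 and −1.48. At ZT27 the same 3 genes lay between 1.74 and 1.95 in both genotypes. LNK3 was thus the only LNK gene of the 4 within the ZT45 limits.

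**Figure D3:**
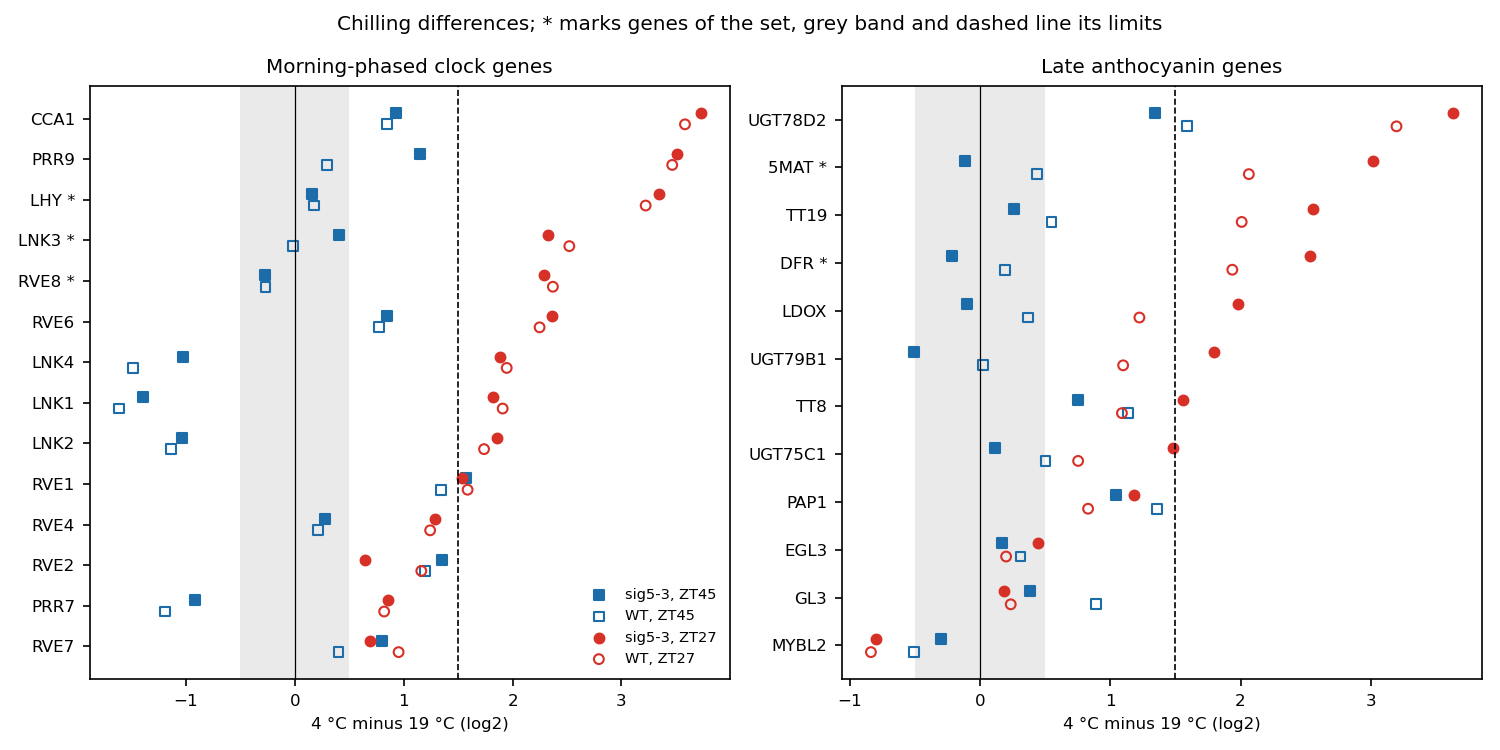
Chilling differences (4 °C minus 19 °C, log2) of 14 morning-phased clock genes and 12 late anthocyanin genes, with squares for ZT45 and circles for ZT27, filled for sig5-3 and open for WT. The grey band and the dashed line are the limits that chose the 76 genes, and asterisks mark those chosen: LHY, LNK3, RVE8, 5MAT and DFR combine squares in the band with circles right of the line, while LNK1, LNK2 and LNK4 have squares left of the band.

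Anthocyanins are red pigments that plants make under cold and bright light, and their last steps are built by DFR, LDOX and a series of sugar and acyl transferases. DFR, dihydroflavonol reductase (AT5G42800; chromosome 5, 17164093 to 17166032, minus strand), had 241, 216 and 219 in sig5-3 and 248, 239 and 237 in WT at 4 °C, against 224, 251 and 318 in sig5-3 and 209, 258 and 174 in WT at 19 °C in the ZT45 set. At ZT27 it had 25.01, 53.4 and 45.1 in sig5-3 and 30.8, 27.6 and 28.4 in WT at 4 °C, against 6.11, 4.81 and 8.77 in sig5-3 and 8.11, 6.46 and 7.06 in WT at 19 °C. The ZT45 libraries overlapped between temperatures and all lay above the chilled ZT27 libraries. The gene was 32.4 times as high at ZT45 as at ZT27 at 19 °C. Its ZT27 difference was 2.53 in sig5-3 and 1.94 in WT, and in sig5-3 it was 2.85 without replicate 1 of the chilled group.

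5MAT (AT3G29590; chromosome 3, 11398592 to 11400332, minus strand), which attaches malonate to anthocyanins, had 38.1 to 50.05 (median 45.3) in the 6 chilled and 26.8 to 57.6 (median 41.9) in the 6 unchilled ZT45 libraries, which overlapped. At ZT27 it had 24.03, 25.4 and 23.1 in sig5-3 and 14.97, 14.6 and 12.9 in WT at 4 °C, against 2.65, 1.98 and 3.14 in sig5-3 and 3.42, 2.96 and 2.64 in WT at 19 °C. The 3 chilled sig5-3 libraries all lay above the 3 chilled WT libraries, and the ZT27 difference was 3.02 in sig5-3 and 2.06 in WT. SCPL10 (AT2G23000; chromosome 2, 9792166 to 9796408, plus strand), an acyltransferase that decorates anthocyanins with sinapate, had 46.1 to 50.8 (median 47.3) in the 6 chilled and 37.1 to 50.2 (median 45.01) in the 6 unchilled ZT45 libraries. In the ZT27 set it had 7.92, 24.1 and 18.8 in sig5-3 and 18.8, 16.2 and 16.5 in WT at 4 °C, against 5.35, 3.87 and 5.45 in sig5-3 and 4.98, 3.92 and 4.68 in WT at 19 °C, all below the ZT45 libraries. Replicate 1 of chilled sig5-3 was 1.37 below the mean of the others of its group on the log2 scale, the largest such gap of the 76 genes. SCPL10 has close neighbours of its family in the genome, and the sources used here do not say how reads shared by such copies were counted.

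Of 12 late anthocyanin genes with values, none was at least 1.5 higher at 4 °C in both genotypes at ZT45 and 4 were at ZT27. Beside DFR and 5MAT these were TT19, a glutathione transferase needed to store anthocyanin in the vacuole (2.55 in sig5-3 and 2.01 in WT), and the glucosyltransferase gene UGT78D2 (3.63 and 3.20). TT19 missed the set by its ZT45 difference of 0.55 in WT, with 0.26 in sig5-3, and UGT78D2 by 1.34 in sig5-3 and 1.59 in WT. LDOX was within the ZT45 limits (−0.10 in sig5-3 and 0.37 in WT) but reached only 1.22 in WT at ZT27, against 1.98 in sig5-3. The regulators PAP1 and TT8 missed both limits in WT.

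The other genes of the class over 0.75 came from several kinds of function. CLC-B, a vacuolar anion transporter of the chloride channel family, had 49.4 to 55.2 (median 51.8) in the 6 chilled and 37.05 to 41.6 (median 39.3) in the 6 unchilled ZT45 libraries, and 12.2 to 13.6 (median 13.2) in the 6 chilled and 3.27 to 4.52 (median 3.82) in the 6 unchilled ZT27 libraries. NDA1, an alternative NAD(P)H dehydrogenase of mitochondria, had 111 to 127 (median 124) in the 6 chilled and 126 to 142 (median 136) in the 6 unchilled ZT45 libraries, and 80.2 to 101 (median 86.01) in the 6 chilled and 16.8 to 21.5 (median 18.9) in the 6 unchilled ZT27 libraries. In both genes the unchilled ZT27 libraries were lowest, and for NDA1 the chilled ZT45 libraries had the lower median of the ZT45 set. PPT2, which carries phosphoenolpyruvate into plastids, reached a median of 37.3 in the chilled and 40.1 in the unchilled ZT45 libraries, against 27.5 in the chilled and 8.62 in the unchilled ZT27 libraries. The class also held CYTC-2, one of the cytochrome c genes of respiration, the transporter gene AT1G19450, the TRAF-like gene AT3G28220 and UP6, a gene with no described product. In all 13 genes the 6 unchilled ZT45 libraries lay above the 6 unchilled ZT27 libraries. In 9 of them all 12 ZT45 libraries lay above all 6 chilled ZT27 libraries. These were LHY, RVE8, DFR, 5MAT, SCPL10, CLC-B, NDA1, AT3G28220 and UP6. They are 11.8% of the 76 genes, against 14.6% of all genes. The class was defined by a high ZT45 level, so both counts follow in part from that choice.

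The gene with the largest ZT27 response was of the opposite kind. ADH1 (AT1G77120; chromosome 1, 28975255 to 28977417, plus strand) encodes alcohol dehydrogenase, which regenerates NAD+ in ethanol fermentation and is a known cold and low-oxygen gene. It had 8.46, 7.304 and 6.25 in sig5-3 and 7.01, 7.34 and 7.83 in WT at 4 °C, against 7.07, 6.89 and 7.31 in sig5-3 and 6.33, 7.66 and 5.68 in WT at 19 °C in the ZT45 set. In the ZT27 set ADH1 had 479.9, 382 and 418 in sig5-3 and 368, 362 and 375 in WT at 4 °C, against 4.38, 6.305 and 6.12 in sig5-3 and 7.03, 6.56 and 5.98 in WT at 19 °C. The 6 chilled ZT27 libraries stood far above the other 18, which overlapped with each other. The chilled mean was 1.03 times the unchilled one in sig5-3 and 1.13 times in WT at ZT45, against 76.1 times in sig5-3 and 56.5 times in WT at ZT27. The enzymes just before ADH1 in fermentation did not share this pattern: PDC1, pyruvate decarboxylase, was 1.37 higher in sig5-3 and 1.33 in WT at ZT45, beside 4.52 and 4.34 at ZT27, and PDC2 was 1.61 and 1.60 higher at ZT45, beside 1.43 and 1.37 at ZT27.

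**Figure D4:**
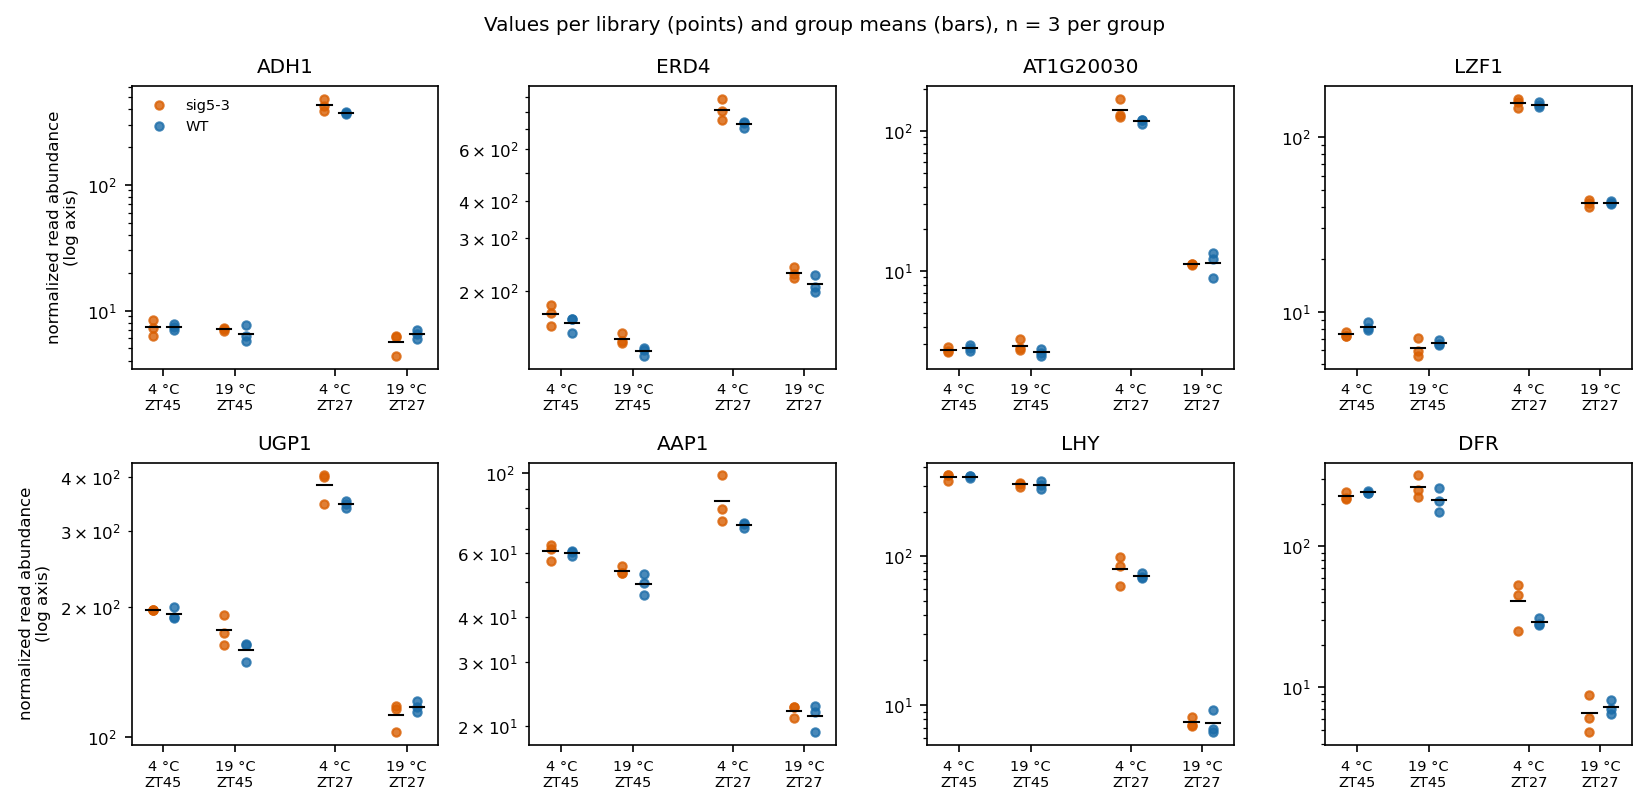
Normalized read abundance (log axis) of 8 of the 76 genes in each of the 24 libraries, with sig5-3 in orange and WT in blue and bars for group means (n = 3). ADH1, ERD4, AT1G20030 and LZF1 are highest in the chilled ZT27 libraries, with unchilled ZT27 libraries above all ZT45 libraries for the last 3, UGP1 and AAP1 take intermediate levels at ZT45, and LHY and DFR are highest at ZT45 at both temperatures.

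Another 4 genes gained at least 3 on the log2 scale at ZT27, LHY among them. AT1G32860, a glycosyl hydrolase gene (chromosome 1, 11907044 to 11909049, minus strand), had 6.303 to 7.92 (median 6.85) in the 6 chilled and 6.43 to 7.37 (median 7.06) in the 6 unchilled ZT45 libraries, and 146 to 207 (median 151) in the 6 chilled and 10.4 to 12.7 (median 11.98) in the 6 unchilled ZT27 libraries. AT1G20030, which encodes a thaumatin-like protein of the pathogenesis-related type (chromosome 1, 6945425 to 6947344, plus strand), had 2.66 to 2.94 (median 2.75) in the 6 chilled and 2.49 to 3.26 (median 2.76) in the 6 unchilled ZT45 libraries, and 113 to 169 (median 123) in the 6 chilled and 8.88 to 13.5 (median 11.2) in the 6 unchilled ZT27 libraries. AT4G13800, of the NIPA magnesium transporter family, had 2.81 to 3.33 (median 2.99) in the 6 chilled and 1.87 to 2.84 (median 2.38) in the 6 unchilled ZT45 libraries, and 21.9 to 29.8 (median 26.9) in the 6 chilled and 2.21 to 2.899 (median 2.69) in the 6 unchilled ZT27 libraries. In AT1G32860 and AT1G20030 every ZT45 library, chilled ones included, lay below every unchilled ZT27 library, while in AT4G13800 these ranges overlapped. The next in size were the receptor-like kinase gene AT5G61350 (2.81), known as ERULUS for its role in root hair growth, SERPIN1, a protease inhibitor (2.65), the exchanger gene AT5G17850 (2.60) and AT5G39240 (2.56), each as the mean of both genotypes.

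Of all 76 genes LZF1 had the lowest ZT45 level against its ZT27 range. LZF1 (AT1G78600; chromosome 1, 29566863 to 29568931, plus strand), also named BBX22, is a B-box factor that works with HY5 to promote seedling greening. It had 7.29, 7.69 and 7.22 in sig5-3 and 8.05, 7.85 and 8.698 in WT at 4 °C, against 7.098, 5.598 and 5.92 in sig5-3 and 6.45, 6.49 and 6.84 in WT at 19 °C in the ZT45 set. In the ZT27 set LZF1 had 159, 166 and 148 in sig5-3 and 152, 159.8 and 148 in WT at 4 °C, against 43.7, 39.9 and 41.7 in sig5-3 and 42.95, 41.7 and 41.4 in WT at 19 °C. At ZT45 the chilled libraries were higher than the unchilled ones of their genotype, by 0.24 in sig5-3 and 0.29 in WT on the log2 scale, yet all 12 lay far below the unchilled ZT27 libraries. RHA3B, a RING-H2 finger gene, had a like pattern at lower values, with 0.846 to 1.55 (median 1.06) in the 6 chilled and 0.6304 to 1.26 (median 0.913) in the 6 unchilled ZT45 libraries, and 15.1 to 21.8 (median 16.9) in the 6 chilled and 4.299 to 5.82 (median 5.02) in the 6 unchilled ZT27 libraries. In 13 genes (17.1%, against 13.2% of all genes) all 12 ZT45 libraries lay below all 6 unchilled ZT27 libraries. Beside those named these were ERD4, ESL1, TET3, AT1G49230, AT3G06620, AT3G55760, AT5G04250, AT5G27930 and AT5G46600.

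The set held 2 genes of light signalling. In a list of 20 HY5-associated genes, all with values, 8 reached 1.5 in both genotypes at ZT45 and 12 at ZT27, and LZF1 and SPA1 were the 2 of the set. SPA1, a partner of the ubiquitin ligase COP1 that holds light responses in check, had 128 to 146 (median 133) in the 6 chilled and 97.9 to 103 (median 100.5) in the 6 unchilled ZT45 libraries, and 145 to 206 (median 193) in the 6 chilled and 57.4 to 67.3 (median 65.7) in the 6 unchilled ZT27 libraries. The ZT45 libraries of SPA1 all lay above its unchilled ZT27 libraries. The highest chilled ZT45 library (145.6) overlapped only with replicate 1 of chilled sig5-3 at ZT27 (145.3), the library that stood apart. The other chilled ZT27 libraries had 186 to 206. Chilled lay above unchilled in both sets, as in LZF1. SPA1 thus differs from LZF1 in level although the differences that chose both were alike. Among 16 salicylic acid and WRKY genes, WRKY18, a pathogen-induced repressor of defence genes, was the only one chosen. WRKY18 had 7.99 to 12.6 (median 10.5) in the 6 chilled and 9.52 to 16.97 (median 11.9) in the 6 unchilled ZT45 libraries, and 26.8 to 41.4 (median 37.03) in the 6 chilled and 8.002 to 11.8 (median 9.83) in the 6 unchilled ZT27 libraries, and its chilling difference was 0.01 in sig5-3 and −0.41 in WT at ZT45, against 1.65 in sig5-3 and 1.89 in WT at ZT27.

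ERD4, a membrane protein gene of the early dehydration response, had 144 to 179 (median 161) in the 6 chilled and 121 to 145 (median 131) in the 6 unchilled ZT45 libraries, and 708 to 886 (median 746) in the 6 chilled and 198 to 241 (median 223) in the 6 unchilled ZT27 libraries. TIL, a lipocalin that protects membranes from temperature stress, had 67.8 to 75.9 (median 71.6) in the 6 chilled and 49.3 to 59.1 (median 53.9) in the 6 unchilled ZT45 libraries, and 238 to 386 (median 256) in the 6 chilled and 66.7 to 71.7 (median 70.6) in the 6 unchilled ZT27 libraries. The ZT45 values of ERD4 lay below the unchilled ZT27 values, and those of chilled TIL overlapped with them. ESL1, a sugar transporter of the ERD6 family, and DI21, a drought-induced gene, were 1.81 and 1.68 higher at ZT27. No gene of the lists of CBF-type and other cold factors (11 with values), COR genes (14) and raffinose genes (3) was in the set. Of these lists 6, 6 and 1 genes reached 1.5 in both genotypes at ZT45, and 9, 11 and 3 did at ZT27. Over all 23 lists, 9 of the 249 genes with values were among the 76.

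None of the 22 genes of a list of sugar transport and sucrose genes, and none of 16 starch genes, was among the 76. The lists do not hold every gene of these functions: ESL1, the sugar transporter gene given above, is an example among the 76 that is in no list. The 76 may hold others. These zeros therefore describe the listed genes only. UGP1, which makes UDP-glucose for sucrose and wall synthesis, had 188 to 199 (median 197) in the 6 chilled and 149 to 192 (median 164) in the 6 unchilled ZT45 libraries, and 339 to 403 (median 349) in the 6 chilled and 103 to 121 (median 117) in the 6 unchilled ZT27 libraries. XTH24, a xyloglucan endotransglucosylase that remodels walls, had 38.97 to 54.95 (median 47.8) in the 6 chilled and 38.03 to 80.2 (median 54.8) in the 6 unchilled ZT45 libraries, and 207 to 266 (median 244) in the 6 chilled and 46.9 to 65.9 (median 50.6) in the 6 unchilled ZT27 libraries. UGP1 took intermediate values at ZT45, and the ZT45 libraries of XTH24 overlapped with the unchilled ZT27 libraries. MUR4, the exostosin gene AT4G13990, the pectin lyase-like gene AT3G09540 and the O-fucosyltransferase gene AT3G02250 were 1.59, 1.92, 1.73 and 1.75 higher at ZT27, and all had ZT45 levels near or below their unchilled ZT27 levels. PFK7, a phosphofructokinase of glycolysis, had 30.4 to 32.3 (median 31.3) in the 6 chilled and 22.8 to 25.9 (median 24.1) in the 6 unchilled ZT45 libraries, and 116 to 136 (median 129) in the 6 chilled and 29.6 to 33.9 (median 31.7) in the 6 unchilled ZT27 libraries.

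PLC4, a phosphoinositide-specific phospholipase C, had 4.34 to 6.29 (median 5.93) in the 6 chilled and 4.29 to 5.95 (median 5.25) in the 6 unchilled ZT45 libraries, and 23.9 to 28.5 (median 26.01) in the 6 chilled and 6.25 to 7.72 (median 6.704) in the 6 unchilled ZT27 libraries. CCT2, which activates choline for phosphatidylcholine synthesis, had 14.7 to 16.3 (median 15.6) in the 6 chilled and 11.8 to 13.9 (median 12.4) in the 6 unchilled ZT45 libraries, and 46.3 to 60.4 (median 55.6) in the 6 chilled and 12.9 to 15.3 (median 13.6) in the 6 unchilled ZT27 libraries. Chilled ZT27 libraries of both genes stood clear of all others. The patatin-like lipase gene pPLAIIIbeta was 1.71 higher at ZT27, the PP2C phosphatase gene AT5G27930 1.82, the PAS domain kinase gene AT3G06620 1.57, the tetraspanin gene TET3 1.81 and ADF5, an actin depolymerizing factor, 1.85. SERPIN1 had 29.6 to 31.7 (median 30.7) in the 6 chilled and 20.1 to 25.3 (median 22.3) in the 6 unchilled ZT45 libraries, and 184 to 221 (median 195) in the 6 chilled and 28.4 to 33.7 (median 31.5) in the 6 unchilled ZT27 libraries, and the aspartyl protease gene AT3G54400 had 123 to 139.8 (median 126) in the 6 chilled and 96.3 to 121 (median 105) in the 6 unchilled ZT45 libraries, and 323 to 475 (median 365) in the 6 chilled and 92.9 to 104 (median 98.7) in the 6 unchilled ZT27 libraries.

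LSU2 and LSU3 belong to a small family named for its response to low sulfur, and AT5G26220, also named GGCT2;1, belongs to the ChaC-like enzymes that break down glutathione. LSU2 had 30.5 to 41.1 (median 35.9) in the 6 chilled and 21.9 to 35.3 (median 25.4) in the 6 unchilled ZT45 libraries, and 35.7 to 68.2 (median 48.2) in the 6 chilled and 13.8 to 15.7 (median 14.3) in the 6 unchilled ZT27 libraries. LSU3 had 4.19 to 5.91 (median 5.04) in the 6 chilled and 2.59 to 5.17 (median 3.69) in the 6 unchilled ZT45 libraries, and 8.56 to 15.7 (median 14.3) in the 6 chilled and 1.74 to 2.96 (median 2.11) in the 6 unchilled ZT27 libraries. AT5G26220 had 2.86 to 4.44 (median 3.53) in the 6 chilled and 4.29 to 6.55 (median 4.69) in the 6 unchilled ZT45 libraries, and 9.84 to 24.00 (median 20.6) in the 6 chilled and 3.46 to 6.11 (median 3.68) in the 6 unchilled ZT27 libraries, and in both genotypes its chilled mean was lower at ZT45 (−0.49 in sig5-3 and −0.38 in WT). In LSU2 and AT5G26220 replicate 1 of chilled sig5-3 at ZT27 lay above the mean of the others of its group, by 0.83 and 0.88 on the log2 scale. AAP1, an amino acid permease, was the highest of the intermediate class at 0.74 of its ZT27 range, with 57.1 to 63.4 (median 60.5) in the 6 chilled and 46.1 to 55.2 (median 52.7) in the 6 unchilled ZT45 libraries, and 70.4 to 98.4 (median 73.02) in the 6 chilled and 19.2 to 22.7 (median 22.3) in the 6 unchilled ZT27 libraries. CYP89A2, a cytochrome P450 gene, was at 0.33.

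The genotypes were compared by their average over both temperatures, which the rule did not use. At ZT45 limma passed none of the 76 at an adjusted p under 0.05, and 0.0891% of all genes passed. An unadjusted p under 0.05 was found for 8 of the 76 (10.5%), against 8.61% of all genes. At ZT27 limma found 3 of the 76 genes (3.95%) different between sig5-3 and WT, where 4.16% of all genes passed, so the share was that of the background. All 3 were lower in sig5-3. An unadjusted p under 0.05 was found for 19 of the 76 (25.0%), against 21.2% of all genes. The median ZT27 difference was 0.00 over the 76 genes (range −0.84 to 0.28) and 0.01 over all genes. None passed for the change of the genotype difference between the time sets, where 0.00557% of all genes passed, and 6 (7.89%, against 6.63% of all genes) had an unadjusted p under 0.05.

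The 3 genes differed modestly. AT1G51820, which encodes a leucine-rich repeat kinase (chromosome 1, 19237219 to 19241965, minus strand), had 7.92, 5.63 and 8.79 in sig5-3 and 6.65, 9.48 and 7.67 in WT at 4 °C, against 8.11, 7.33 and 4.199 in sig5-3 and 10.4, 7.72 and 12.9 in WT at 19 °C in the ZT45 set, which overlapped between genotypes at both temperatures. At ZT27 it had 9.303, 8.13 and 11.7 in sig5-3 and 23.5, 14.8 and 20.6 in WT at 4 °C, against 2.595, 1.69 and 2.56 in sig5-3 and 2.71, 4.33 and 5.35 in WT at 19 °C. Every sig5-3 library of that set lay below every WT library of its temperature, and the difference was −0.84 ± 0.19 (log2, SE, limma adjusted p = 0.0204, lower in 6 of 6 libraries). It has neighbours of its kinase family, among which shared reads could be split. AT5G44575, a gene with no described product, had 6.07, 5.396 and 6.51 in sig5-3 and 5.81, 9.57 and 6.94 in WT at 4 °C, against 4.85, 5.36 and 3.72 in sig5-3 and 7.45, 6.35 and 9.55 in WT at 19 °C in the ZT45 set. The ZT45 difference was −0.47 ± 0.13 (limma adjusted p = 0.214), with no overlap between genotypes at 19 °C. In the ZT27 set AT5G44575 had 8.07, 7.79 and 9.28 in sig5-3 and 10.8, 11.8 and 12.2 in WT at 4 °C, against 2.16, 2.35 and 1.34 in sig5-3 and 2.55, 3.94 and 3.94 in WT at 19 °C (−0.57 ± 0.13, limma adjusted p = 0.0204), with no overlap between genotypes, and its difference did not pass for a change between the sets (limma adjusted p = 0.937). BGLU10, a glucosidase-family enzyme that adds glucose to anthocyanins, had 37.96, 35.8 and 41.02 in sig5-3 and 39.7, 47.4 and 39.4 in WT at 4 °C, against 31.3, 30.2 and 30.4 in sig5-3 and 32.5, 36.7 and 34.6 in WT at 19 °C in the ZT45 set (−0.15 ± 0.11, limma adjusted p = 0.779). In the ZT27 set BGLU10 had 62.8, 105 and 121 in sig5-3 and 128, 119 and 120.5 in WT at 4 °C, against 20.5, 22.9 and 23.8 in sig5-3 and 26.7, 27.96 and 37.04 in WT at 19 °C (−0.41 ± 0.11, limma adjusted p = 0.0487). Its genotypes overlapped at 4 °C at ZT27, where replicate 1 of sig5-3 was lowest, and did not overlap at 19 °C. Without that replicate the ZT27 difference of BGLU10 was −0.27 (limma adjusted p = 0.0391).

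These calls changed with single libraries. Left out alone, WT at 19 °C replicate 2 or 3 or WT at 4 °C replicate 1 or 3 left 0 of the 76 passing at ZT27, and sig5-3 at 19 °C replicate 3 left 1. Without replicate 1, 2 or 3 of chilled sig5-3 there were 6, 8 and 5. BGLU10 missed the threshold in 19 of the 24 fits without 1 library, 11 of them without a ZT45 library, which its ZT27 contrast does not use. With only the 4 ZT27 groups in the fit AT1G51820 alone passed, and the adjusted p of AT5G44575 was 0.0603 and that of BGLU10 0.174.

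The size of the ZT27 chilling difference was close in both genotypes, as the rule requires in part. The sig5-3 value exceeded the WT value for 44 of the 76 genes (57.9%, against 52.8% of all genes), with a median excess of 0.04 and a range from −0.35 to 0.95. Without replicate 1 of chilled sig5-3 it did so for 54 (71.1%, against 53.3% of all genes), with a median of 0.10 and a highest value of 0.96. The largest excess was that of 5MAT (0.95, and 0.96 without that library), followed by DFR (0.59, and 0.91 without it) and ADH1 (0.42, and 0.33 without it). Without that library AT3G28220 (0.55, and 0.29 with it) ranked above ADH1. Its libraries spread most around their group means of all 76 genes (residual SD 0.47 on the log2 scale). At ZT27 its unchilled WT libraries had 7.64, 14.1 and 4.09. As the genotype difference of chilling shares its values with the rule, it has no test.

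**Figure D5:**
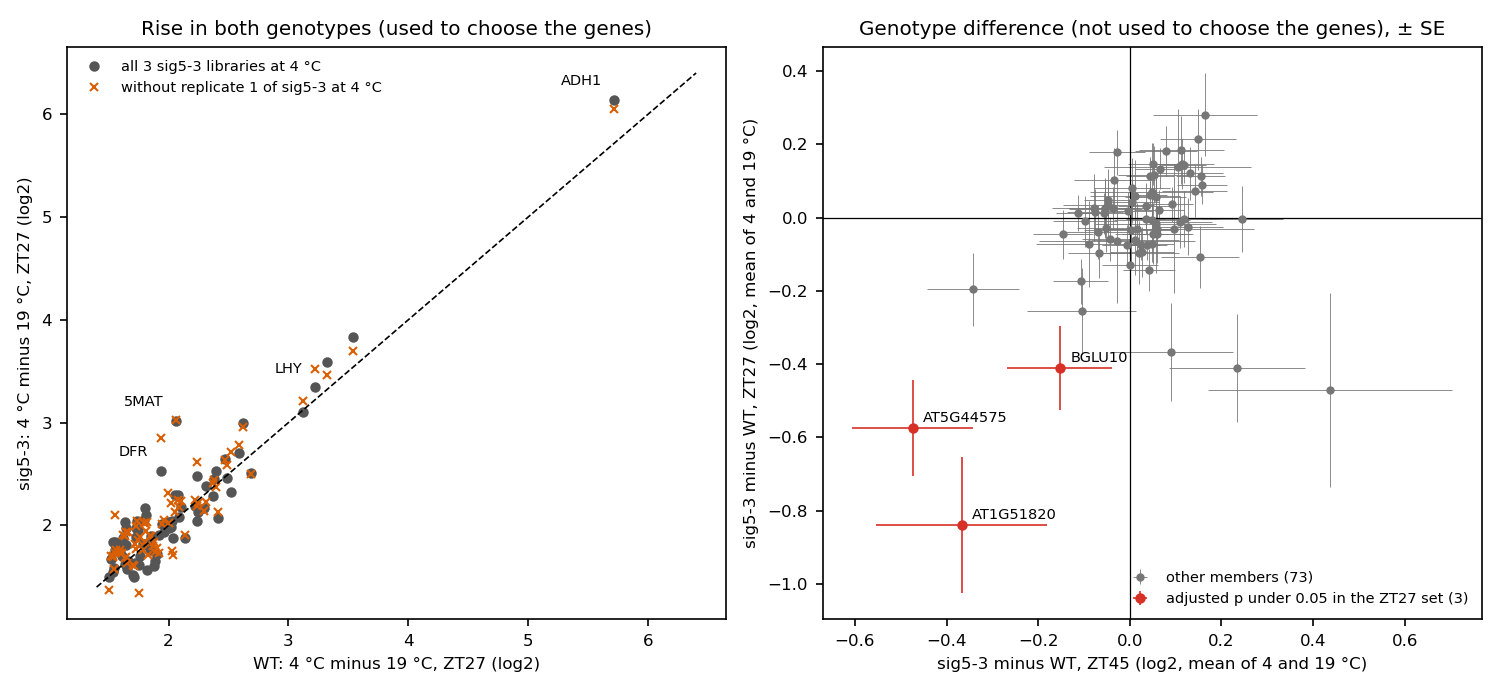
Left, chilling difference at ZT27 of each of the 76 genes in sig5-3 against WT (log2), with crosses for sig5-3 without the replicate that stood apart and a dashed line of equality. Right, sig5-3 minus WT averaged over both temperatures, ± SE, with ZT27 on the vertical and ZT45 on the horizontal axis, and the 3 genes with an adjusted p under 0.05 at ZT27 in red, AT1G51820, AT5G44575 and BGLU10, all below 0.

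Promoters were read as the 250 bases before each gene's start in the RefSeq annotation of TAIR10.1 and searched on both strands for motifs of cold, clock and light factors, in the 76 genes, in the other 370 genes raised at ZT27 and in 17951 genes with values. The CRT/DRE core CCGAC, which CBF factors bind, was in 31.6% of the 76, 26.2% of the 370 and 13.05% of all. The evening element AAAATATCT, bound by CCA1, LHY and REVEILLE factors, was in 10.5%, 9.46% and 2.54% of the same sets. The G-box CACGTG, bound by bZIP and bHLH factors such as HY5 and PIFs, was in 17.1%, 13.2% and 7.35%, and the ABRE core ACGTGNC, which can overlap it, in 17.1%, 16.5% and 9.55%. The CCA1-binding site AAAAATCT was in 9.21%, 7.03% and 6.81%, the morning element CCACAC in 7.89%, 10.3% and 6.25%, the GATA I-box GATAAG in 9.21%, 11.4% and 12.3%, and the telobox AAACCCTA in none, 1.62% and 3.61%. By these shares the 76 stood closer to the other raised genes than to all genes for the first 4 motifs. A match is a description of the letters in this window.

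Within the 76, the G-box was in 7 of the 13 genes with a ZT45 level over 0.75 (LHY, LNK3, DFR, SCPL10, UP6, AT3G28220 and CYTC-2), in 2 of the 13 between and in 4 of the 50 under 0.25. All 8 genes with an evening element were among those 50: AT1G20030, AT4G13800, AT5G39240, PLC4, ADF5, AT3G02250, AT3G09540 and AT5G04250. These counts were made after the classes had been seen and have no test. Windows of 5 genes are printed to show both patterns and the strongest responder, 5′ to 3′ on the strand of the gene. LHY and LNK3 are shown for the G-box in the high class (chr1:37872-38121, minus strand, and chr3:3923265-3923514, plus strand), and capitals mark a G-box (CACGTG), an ABRE core (ACGTGNC) or a morning element (CCACAC).
LHY: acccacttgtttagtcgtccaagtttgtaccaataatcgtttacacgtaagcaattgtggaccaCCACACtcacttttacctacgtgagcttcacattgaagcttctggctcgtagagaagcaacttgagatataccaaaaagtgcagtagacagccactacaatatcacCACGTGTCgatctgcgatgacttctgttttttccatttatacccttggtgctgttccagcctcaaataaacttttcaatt
LNK3: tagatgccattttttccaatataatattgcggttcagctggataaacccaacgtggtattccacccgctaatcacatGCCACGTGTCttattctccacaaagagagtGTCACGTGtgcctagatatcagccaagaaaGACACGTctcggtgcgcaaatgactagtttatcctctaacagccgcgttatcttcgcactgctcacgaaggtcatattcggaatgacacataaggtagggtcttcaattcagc
The G-box of LHY starts 80 bases before the gene start, followed on the same letters by an ABRE core, and a morning element starts at 186. LNK3 holds 2 G-boxes, 171 and 141 bases before its start, each overlapping an ABRE core.
PLC4 (chr5:23716392-23716641, minus strand) and AT1G20030 (chr1:6945175-6945424, plus strand) are shown for the evening element in the low class, and capitals mark it or, in AT1G20030, also a CCA1-binding site.
PLC4: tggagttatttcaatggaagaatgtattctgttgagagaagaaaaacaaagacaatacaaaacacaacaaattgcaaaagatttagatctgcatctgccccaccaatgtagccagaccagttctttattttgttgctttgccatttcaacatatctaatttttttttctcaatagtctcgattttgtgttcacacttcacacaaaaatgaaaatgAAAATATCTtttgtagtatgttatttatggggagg
AT1G20030: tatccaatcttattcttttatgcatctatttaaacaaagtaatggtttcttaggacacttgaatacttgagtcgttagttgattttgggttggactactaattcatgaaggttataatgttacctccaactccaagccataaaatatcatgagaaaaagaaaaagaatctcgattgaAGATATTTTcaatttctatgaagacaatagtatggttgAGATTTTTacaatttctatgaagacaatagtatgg
The evening element lies 35 bases before the start of PLC4, and on the reverse strand 73 bases before that of AT1G20030. ADH1 (chr1:28975005-28975254, plus strand), of the low class, is shown as the gene with the largest response, and capitals mark a G-box with an ABRE core over it, close to the gene start.
ADH1: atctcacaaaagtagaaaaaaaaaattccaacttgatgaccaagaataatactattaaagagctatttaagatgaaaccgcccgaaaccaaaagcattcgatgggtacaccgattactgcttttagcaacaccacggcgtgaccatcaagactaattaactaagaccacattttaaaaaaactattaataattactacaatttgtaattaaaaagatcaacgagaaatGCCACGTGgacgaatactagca

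The 76 genes lay on all 5 chromosomes, with 23, 5, 17, 13 and 18 genes on chromosomes 1 to 5, and all are protein coding. Only AT3G09540 and RVE8 were within 20000 bases of each other, 14877 bases apart, and they belong to opposite classes: at ZT45 RVE8 was at 1.78 and AT3G09540 at −0.22 of its ZT27 range.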

How the data were processed

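Transcripts were measured in 24 libraries, 3 for each of 8 groups. The TruSeq Stranded mRNA kit was used, per the labels' protocols, and reads were aligned with STAR 2.4.1d in Partek 6.6 to a genome named TAIR11, per the design text. The deposited signal is a scaled abundance of reads for each gene; how the authors scaled it is not stated. Between 88.9% and 91.4% of values under 30 per library were whole multiples of 1 step (within 0.05 steps), so no count test was run. The 19384 genes without values were left out. With limma 3.58.1 (R 4.3.3), 8 group means were fitted to log2(value + 0.5) over 24 libraries (trend and robust settings), with Benjamini-Hochberg adjustment over 17952 genes, and the fit was tested on simulated data. The contrasts tested were sig5-3 minus WT averaged over temperatures in each time set, its change between sets, and ZT45 minus ZT27.

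A rule named 35 genes: those in a gene list, with the largest ZT27 differences, chilled levels or time set differences, passing a genotype test, or at a limit of the choice. No product text, the measure of a family, was shared by more than 2 of the genes. Others were named after their values were seen. The members, lists and tests were chosen with earlier results of these data known. Names, coordinates and promoters are from RefSeq (TAIR10.1). Alternatives were other pseudocounts, a filter on low values, centring of libraries, plain limma, a replicate block, fewer groups in the fit, and leaving out each library.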

Additional observations from a re-analysis of the deposited data

How the results depend on the processing

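The gene set changed with the settings: 68 genes met the rule with a pseudocount of 0.1 (66 of them among the 76), 74 with a pseudocount of 2 (58 shared), 77 after centring each library on its median (76 shared), 94 with a mean of at least 1 (76 shared) and 58 with a mean of at least 10 (58 shared). Leaving out 1 library at a time gave 69 to 81 genes, with 68 to 76 shared. The count of genes differing between genotypes at ZT27 was 3, and 2 or 3 with other pseudocounts, the filter on low values, centring or plain limma, but 1 with only the ZT27 groups in the fit, and 0 to 8 with 1 library left out. These last fits hold fewer libraries, and the cause was not tested further. Over all alternatives the limma adjusted p ran from 0.00494 to 0.0663 for AT1G51820, from 0.00454 to 0.0715 for AT5G44575 and from 0.01 to 0.174 for BGLU10, which missed the threshold in 19 of 24 fits without 1 library, with a pseudocount of 2 (0.0503) and with plain limma (0.0573). The genotype counts at ZT45 and between time sets were 0 in every alternative run. The time set count was 71 to 74 in every alternative, and among the genes named SPA1 and LSU2 lost their pass in some. None of these results changed direction under the alternatives run. Same-numbered samples mostly did not deviate together. A correlation over 0.1 was found in 2 of 18 pairs at ZT45 (median −0.09) and 3 of 18 at ZT27 (median −0.03). No pairing by number was thus seen in the values, which cannot show whether same-numbered samples were handled together. With the replicate block, 0 genes passed for genotype at ZT45, 3 at ZT27, 0 between sets and 72 for time set. Fold changes of low genes are understated on the log2(value + 0.5) scale.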
